A study of Mus musculus with 78 samples.

Results

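Lung transcripts after the first 3 h of sleep loss were compared with those at baseline. The comparison took 18 of the 78 lung arrays, 9 from mice deprived of sleep for 3 h (labelled SD 3 hr) and 9 from baseline mice (labelled CTL 0 hr), and all 35556 probe sets of the array entered it. Each array (Affymetrix Mouse Gene 1.0 ST) measured the lung RNA of 1 mouse. All mice were male C57BL/6J of about 10 weeks, kept with 12 h of light a day and fed only in the dark for 14 days. Baseline mice were killed undisturbed at lights on, and sleep-deprived mice were kept awake by gentle handling from lights on. The groups therefore differ in wakefulness, in handling, in clock time and in hours since food, and these cannot be told apart in this contrast. The 9 mice left to sleep over the same 3 h (labelled SS 3 hr) share the clock time and the hours since food, and sleep-deprived mice were tested against them directly for the genes below. The comparison asks which lung transcripts have moved at the earliest sampled hour of enforced wakefulness.

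Values are log2 intensities as deposited, so a difference of 1 is a 2-fold change. Arrays have no read depth, and the number of mice limits the precision. Medians of the 18 arrays ran from 6.58 to 6.74. The mean level of 12 alveolar type 2 cell genes, which mark the surfactant-producing cells of the lung, lay between 11.95 and 12.15 in every one of the 18 mice. Markers of liver varied far more, with a mean level over 11 genes from 5.99 to 9.38 in baseline mice and from 5.78 to 7.14 in sleep-deprived mice, and 10 skeletal muscle genes ran from 5.54 to 8.76 and from 5.49 to 8.88.

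The profiles of 4 of the 18 arrays lay nearer to another group than to their own, over the 200 probe sets that best told the groups apart on the other arrays. Array 36, a baseline mouse, was nearest to mice left to sleep for 12 h. Its Arntl level, the partner of Clock in the circadian activator, was 5.80, against 8.75 to 9.51 in the other baseline mice and 5.45 to 6.22 after 12 h of sleep. Its Per3 level, a clock repressor, was 10.30, against 7.58 to 8.12 and 10.01 to 10.29 respectively. Array 56, also baseline, was nearest to mice left to sleep for 3 h, with a Cry1 level of 6.90 against 7.82 to 8.22 in the other baseline mice. Arrays 46 and 70, both sleep-deprived for 3 h, were nearest to mice deprived for 6 h. Of the 9 arrays labelled SS 3 hr, 3 (61, 75 and 78) were also nearest to another group. Labels were kept as given, and counts are given with these arrays and without them. All baseline arrays are numbered from 36 to 66 in the labels, as are 5 of the sleep-deprived arrays, while the other 4 sleep-deprived arrays are numbered 67 to 70.

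At an adjusted p under 0.01 (limma, all 78 arrays, 9 group means, Benjamini-Hochberg over all probe sets), 188 of 18820 genes were higher after 3 h of sleep loss and 165 were lower. These are 0.999% and 0.877% of the genes tested, and 3764 genes had an unadjusted p under 0.05. Most changes were small, and over the 353 called genes their log2 sizes had a median of 0.35. A log2 difference above 1 was reached by 6 of the higher genes, and one below -1 by 3 of the lower genes. Without arrays 36, 46, 56 and 70 the counts were 207 higher (1.1%) and 217 lower (1.15%), and 138 and 129 of the genes above were called again. Leaving out 1 mouse at a time gave 118 to 226 higher and 85 to 235 lower genes. The count of higher genes moved by more than 1.5 times without array 45 (118) and without array 53 (120), and that of lower genes without arrays 38 (105), 45 (85), 53 (94), 54 (103) and 67 (102). With each array centred on its median, 244 genes were higher and 98 lower. Nothing says that the mice of a group were more than separate animals of 1 experiment. The p-values and SEs rest on a spread between mice pooled over the 9 groups of 78 arrays. They do not rest on the 18 mice alone, and limma also draws the spread of each probe set towards that of all. Fitting only the 18 arrays gave 97 higher and 155 lower genes.

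**Figure D1:**
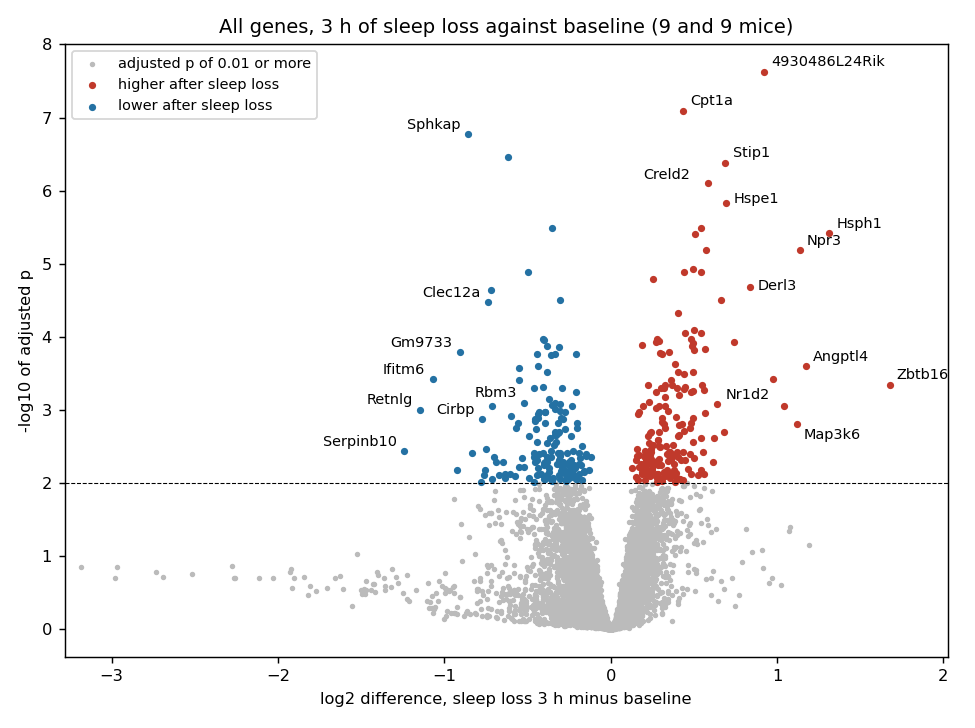
Each point is 1 of 18820 genes, with the log2 difference (3 h of sleep loss minus baseline) on the horizontal axis and -log10 of the adjusted p on the vertical axis, where the dashed line marks 0.01. The 188 higher genes include chaperones such as Hsph1, Stip1 and Creld2, and the 165 lower genes include Cirbp, Ifitm6 and Retnlg.

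Olfactory and vomeronasal receptor genes (Olfr or Vmn symbols) are a family of 1157 measured genes with little known role in lung. Of these, 18 were higher and 1 was lower, against 0.999% and 0.877% of all genes. Within arrays 36 to 66, 158 of the 1157 were higher, where 323 of all 18820 genes were. Their median difference was 0.075 over the 18 arrays, 0.09 among arrays 36 to 51 and 0.02 for arrays 67 to 70 against baseline. These genes are not described further.

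The gene lists below were chosen with earlier results of these data known. They were compared by their counts and medians, which describe the lists and are no test of a set. Over all 18820 genes the median difference was -0.004, and 0.999% were higher and 0.877% lower.

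**Figure D2:**
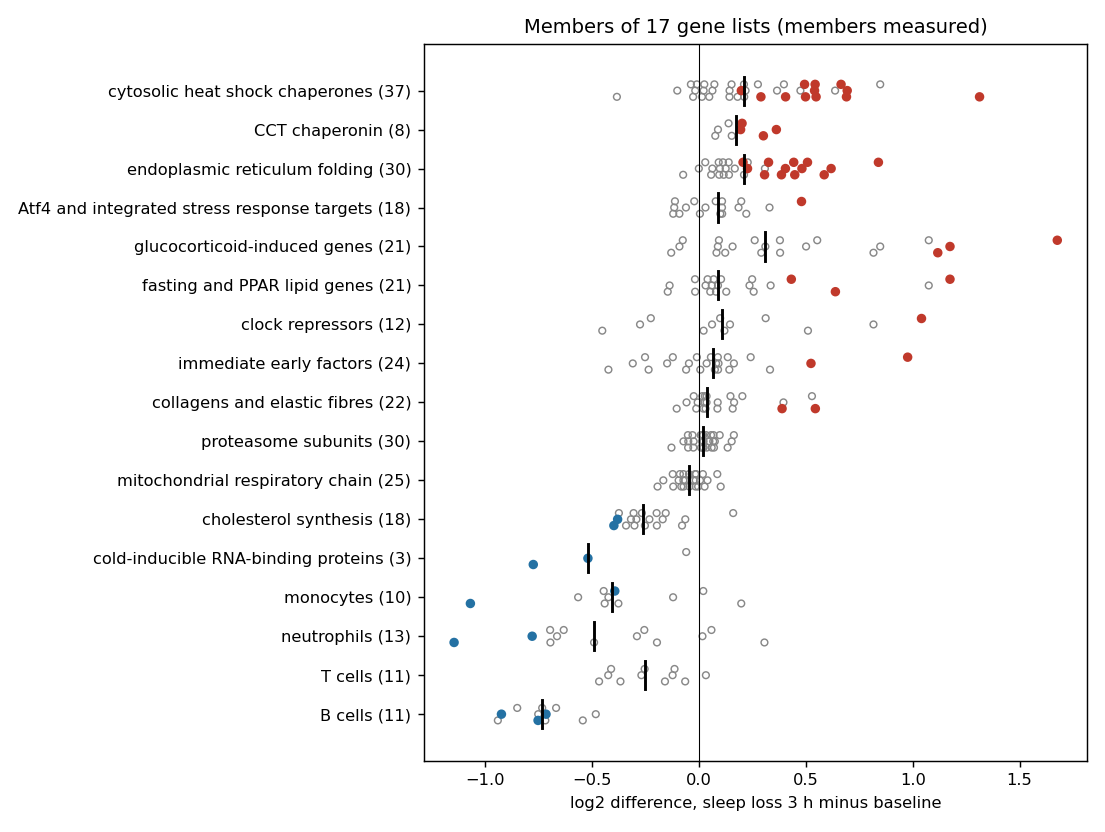
Each row is a gene list with its number of measured members, and each point is the log2 difference of 1 member (3 h of sleep loss minus baseline). Filled points passed an adjusted p of 0.01, in red where higher and in blue where lower, and the black bar is the median of the list. Filled points of the 3 folding lists at the top all lie to the right of 0, and those of the blood cell lists at the bottom all lie to its left.

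Molecular chaperones bind unfolded proteins and help them fold or refold. In the cytosol the Hsp70 and Hsp90 families do this with co-chaperones under the control of heat shock factors, and in the endoplasmic reticulum (ER), where secreted proteins mature, a parallel set is raised by the unfolded protein response. Members of both sets were higher after 3 h of sleep loss. Of 37 cytosolic and mitochondrial chaperones and co-chaperones, 12 were higher and none was lower, with a median difference of 0.21, against 0.999% of all genes higher. Of 8 subunits of the CCT chaperonin, which folds actin and tubulin, 4 were higher and none was lower, with a median of 0.17. Of 30 ER folding genes, 13 were higher and none was lower, with a median of 0.21. The counts were 14 of 37, 4 of 8 and 10 of 30 without arrays 36, 46, 56 and 70, again with none lower. Fitting only the 18 arrays gave 8, 0 and 6, and arrays 67 to 70 against baseline gave 9, 1 and 4, while within arrays 36 to 66 the counts were 10, 3 and 11. Leaving out any 1 mouse left 11 to 14, 3 to 4 and 10 to 14 members higher. In the CCT chaperonin, Cct7 rose by 0.36, Cct3 by 0.30, Cct6a by 0.20 and Cct5 by 0.19, and Cct6a lost its call without any 1 of arrays 36, 39, 43, 45, 53, 54, 56, 68 and 69.

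Hsph1, the Hsp110 nucleotide exchange factor of Hsp70, had the largest difference of the folding genes. Its level ran from 8.77 to 10.22 in baseline mice, with a median of 9.23, and from 9.45 to 11.15 after sleep loss, with a median of 10.70. The groups overlapped, with array 46 the lowest of the sleep-deprived mice. The difference was 1.31 (SE 0.19, n = 9 and 9), a 2.48-fold rise, at an adjusted p of 3.86e-06 (limma). Hsph1 lay still lower in sleeping mice, from 8.24 to 8.87, and sleep-deprived mice exceeded them by 1.99 (adjusted p = 5.14e-12, limma).

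Stip1 (Hop), which passes clients from Hsp70 to Hsp90, ran from 10.11 to 10.78 at baseline (median 10.34) and from 10.56 to 11.48 after sleep loss (median 11.002). Only the 2 lowest sleep-deprived mice, arrays 46 and 70, fell within the range of baseline. Its difference was 0.69 (SE 0.09), at an adjusted p of 4.14e-07 (limma), and 0.96 against sleeping mice (adjusted p = 5.14e-12).

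Hspe1, the Hsp10 lid of the mitochondrial chaperonin, ran from 9.26 to 9.74 at baseline (median 9.61) and from 9.66 to 10.68 after sleep loss (median 10.24), and rose by 0.69 (SE 0.10, adjusted p = 1.46e-06, limma). Array 46 alone fell within the baseline range. Its partner Hspd1 (Hsp60) rose by 0.55 (SE 0.10). Ahsa1, an activator of the Hsp90 ATPase, rose by 0.54 (SE 0.08), and Hsp90aa1, the inducible cytosolic Hsp90, by 0.50 (SE 0.08). Further co-chaperones that passed the test were Hspa4l (0.66), Dnaja1 (0.54), Fkbp4 (0.49), St13 (0.40), Ptges3 (0.29) and Hspa4 (0.20). Hspa4 alone among these 12 lost its call when single mice were left out, without any of 7 arrays (36, 39, 41, 45, 56, 68 and 69).

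Among listed genes, Hspa1a, Hspa1b, Hsp90ab1, Cryab and Hsf1 were not analysed here. Several other heat shock genes of the list did not pass against baseline. Hspb1 (Hsp27) differed by 0.64 (adjusted p = 0.0431, limma), Dnajb1 by 0.40 (0.0463), Chordc1 by 0.47 (0.0157) and Hspa8, the constitutive Hsp70, by 0.18 (0.0388). Against sleeping mice all of these passed, with differences of 0.92, 0.72, 0.90 and 0.31, and in that contrast 21 of the 37 genes were higher and none was lower. The background of that contrast was larger, with 3.62% of all genes higher and 3.74% lower, or 4.22% and 2.7% without arrays 36, 46, 56, 61, 70, 75 and 78, where 20 of the 37 were higher.

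**Figure D3:**
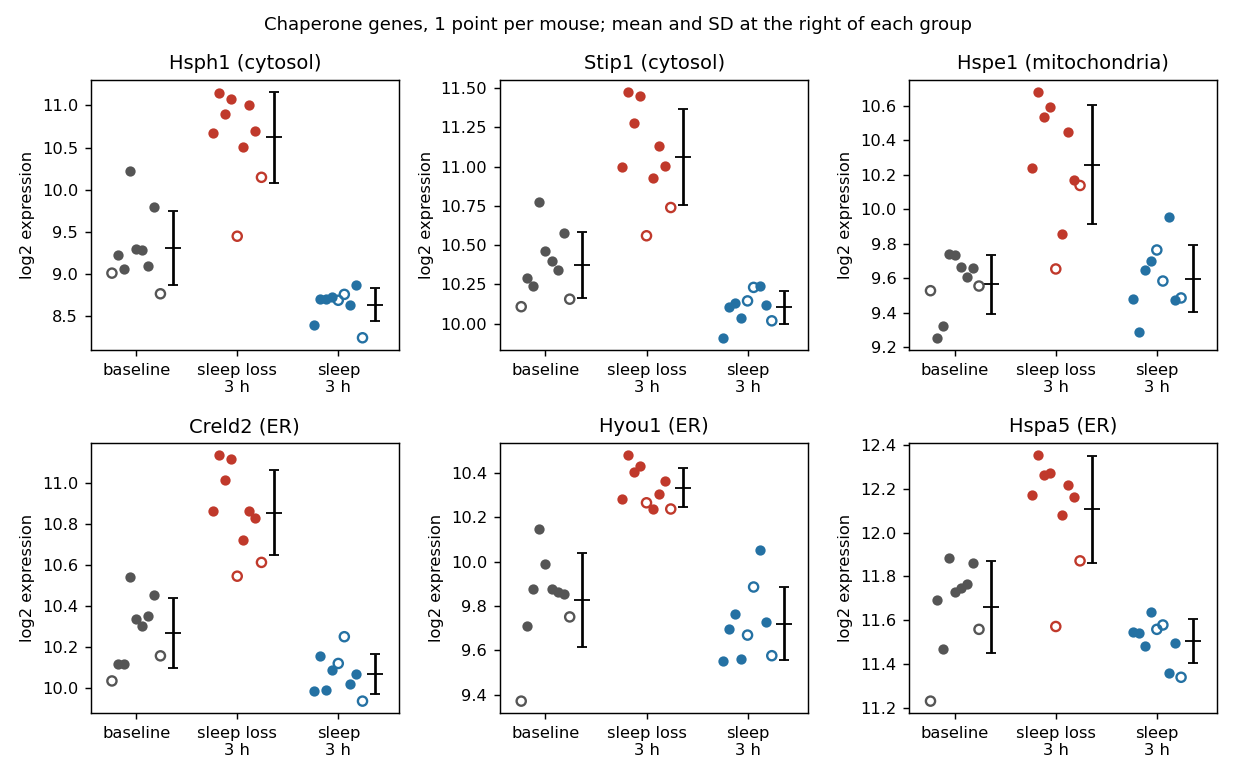
Log2 expression of 6 chaperone genes in single mice at baseline, after 3 h of sleep loss and after 3 h of sleep opportunity (9 mice each), with the mean and SD of each group at its right. Open circles are arrays whose profile lay nearest to another group. Creld2 and Hyou1 do not overlap between baseline and sleep loss, while Hsph1, Stip1, Hspe1 and Hspa5 overlap by at most 2 sleep-deprived mice with the highest baseline mice.

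In the ER, Hspa5 (BiP), the Hsp70 of this compartment and a sensor of unfolded protein, ran from 11.23 to 11.88 at baseline (median 11.73) and from 11.57 to 12.35 after sleep loss (median 12.17). Arrays 46 and 70 lay within the baseline range. It rose by 0.45 (SE 0.07, adjusted p = 9.02e-05, limma), a call lost when only the 18 arrays were fitted (adjusted p = 0.0206). Hyou1, its nucleotide exchange factor, ran from 9.37 to 10.15 at baseline (median 9.86) and from 10.24 to 10.48 after sleep loss (median 10.30), so every sleep-deprived mouse lay above every baseline mouse. Its difference was 0.51 (SE 0.07, adjusted p = 3.91e-06, limma). Creld2, a secreted ER stress protein, also did not overlap, with 10.04 to 10.54 at baseline (median 10.30) and 10.55 to 11.13 after sleep loss (median 10.86), a rise of 0.59 (SE 0.08, adjusted p = 7.78e-07, limma). Against sleeping mice the 3 differences were 0.60, 0.61 and 0.78, all past the threshold.

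Derl3, which carries misfolded proteins out of the ER, had the largest difference of this list at 0.84 (SE 0.13, adjusted p = 2.07e-05, limma), from a low level of 5.73 to 6.34 at baseline (median 5.94) to 6.17 to 7.39 (median 6.68). Its difference was 1.12 within arrays 36 to 66 and 0.48 for arrays 67 to 70 against the same baseline mice (adjusted p = 0.0839). Other higher genes were Sdf2l1 (0.62), the secreted protective factor Manf (0.48), the disulfide isomerase Pdia6 (0.44), the co-chaperones Dnajb9 (0.40) and Dnajc3 (0.31), the collagen chaperone Serpinh1 (0.39), Hsp90b1 (0.33), the ER Hsp90, the lectin chaperone Calr (0.23) and Pdia3 (0.21). Of these, Sdf2l1, Pdia3 and Serpinh1 lost their call without single mice (7, 14 and 13 of the 18 arrays in turn, arrays 36, 38, 43, 44, 45, 53 and 56 for all 3), and Calr, Pdia3, Sdf2l1 and Serpinh1 lost it without arrays 36, 46, 56 and 70, with adjusted p of 0.0132, 0.0164, 0.0194 and 0.0488. Transcripts of the signalling genes Xbp1, Atf6 and Ern1 differed little, by 0.14 (adjusted p = 0.0636, limma), 0.03 (0.79) and 0.06 (0.551). The activity of their proteins was not measured.

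The integrated stress response, a branch that acts through Atf4 to raise amino acid enzymes, had 1 of 18 listed targets higher and none lower, with a median of 0.09. The called gene was the mitochondrial folate enzyme Mthfd2 (0.48, adjusted p = 0.00404, limma), which lost its call without array 43 or without array 68, with a largest adjusted p of 0.0138. None of 30 proteasome subunits passed in either direction, with a median of 0.02.

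Promoters of the called folding genes are shown because known response elements mark the cytosolic and ER sets. Sequences are from RefSeq (GRCm38.p6), taken as the 250 bases before each annotated start, and 10 of the 12 called cytosolic and mitochondrial chaperones and 11 of the 13 called ER genes had an entry. The ER stress element was searched as CCAAT, 9 free bases and CCACG on both strands, a pattern chosen after the values were seen. It stood in 7 of the 11 ER promoters and in 35 of 27025 genes with a promoter (0.13%), and in none of the 10 chaperone promoters. Of all 25 measured ER folding genes with a promoter, called or not, 10 held it (40%). These 10 were the 7 called genes with Canx, Syvn1 and Ero1b, which were not called. The list as a whole thus held the pattern far more often than all genes, and called and uncalled members were not compared by a test. The matches, read 5′ to 3′ on the strand of the element with its fixed bases in capitals, were:
Hspa5: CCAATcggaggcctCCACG
Hsp90b1: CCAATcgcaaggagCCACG
Hsp90b1: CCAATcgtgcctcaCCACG
Calr: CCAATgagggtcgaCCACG
Pdia6: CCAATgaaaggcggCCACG
Dnajc3: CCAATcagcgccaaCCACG
Creld2: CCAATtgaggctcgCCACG
Derl3: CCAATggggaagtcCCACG
The Hspa5 match lay at chr2:34772025-34772043, 47 to 65 bases before the start, in the promoter at chr2:34771840-34772089 (plus strand) printed here with the element in capitals:
Hspa5: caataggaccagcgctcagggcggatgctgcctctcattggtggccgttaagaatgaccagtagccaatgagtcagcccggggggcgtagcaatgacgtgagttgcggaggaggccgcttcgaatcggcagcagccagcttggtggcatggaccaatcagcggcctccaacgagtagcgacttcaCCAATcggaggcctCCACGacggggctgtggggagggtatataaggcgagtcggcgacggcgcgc
Of the 19 measured genes with this pattern, 7 were higher and none lower, all of the higher ones in the ER list, with differences from -0.14 to 0.84 and a median of 0.14.

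The heat shock element was searched as TTCNNGAA or GAANNTTC. It stood in 5 of the 10 chaperone promoters (Hsph1, Hspd1, Hspe1, Dnaja1 and Fkbp4) and in 0 of the 11 ER promoters. The share was 14.5% of all genes with a promoter and 13.1% of the measured ones. Of all 32 measured chaperones of this list with a promoter, called or not, 11 held it (34.4%). Adjoining copies that form 3 units stood in the promoters of Hspd1 and Hspe1 and in 0.514% of all genes. The uncalled chaperone Dnajb6 also held them. This pattern was also chosen after the values were seen. Hspe1 and Hspd1 are transcribed in opposite directions from a shared stretch of chromosome 1, so both promoters hold the same copies. The promoter of Hspe1 (chr1:55087898-55088147, plus strand) and that of Hsph1 (chr5:149636337-149636586, minus strand), the chaperone with the largest difference, are printed with the elements in capitals:
Hspe1: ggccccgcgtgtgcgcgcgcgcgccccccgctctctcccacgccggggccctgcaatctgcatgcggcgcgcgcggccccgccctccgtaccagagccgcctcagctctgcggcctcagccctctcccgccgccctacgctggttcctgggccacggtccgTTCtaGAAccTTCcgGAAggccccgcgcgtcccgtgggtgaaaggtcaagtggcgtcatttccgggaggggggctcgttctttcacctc
Hsph1: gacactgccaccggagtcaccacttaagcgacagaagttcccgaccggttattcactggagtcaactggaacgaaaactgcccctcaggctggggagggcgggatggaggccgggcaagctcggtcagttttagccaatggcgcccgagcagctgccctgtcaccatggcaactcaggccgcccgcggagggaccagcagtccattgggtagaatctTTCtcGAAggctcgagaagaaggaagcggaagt
In the Hspe1 promoter 3 overlapping copies run from 89 to 72 bases before the start, and in the Hsph1 promoter the single copy lies 33 to 26 bases before it. A match is a description of the letters and says nothing of binding. Stip1, Ahsa1, Hspa4l, Ptges3 and Hspa4 had no match in this window.

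Circadian clock genes follow the hour in every tissue. The activators Clock and Arntl drive Per and Cry repressors through E-boxes, and nuclear receptors such as Nr1d2 repress Arntl in turn. The 24 measured clock genes stood in lists of 6 activators, 12 repressors and 6 output factors. Nfil3 was listed with the activators, and Csnk1d, Csnk1e and Fbxl21 with the repressors, though these genes are of other classes. Only Nr1d2 passed the test, and it was higher. Leaving out array 36 alone added Per1, and array weights gave 2 higher members of the repressor list and 1 lower. Nr1d2 ran from 7.57 to 10.38 at baseline (median 8.06) and from 8.74 to 9.91 after sleep loss (median 9.33). The highest baseline value was that of array 36. The difference was 1.04 (SE 0.21, adjusted p = 0.000902, limma), and 1.32 without arrays 36, 46, 56 and 70 (adjusted p = 3.58e-07). The call was lost when only the 18 arrays were fitted (1.04, adjusted p = 0.0732) and within arrays 36 to 66 (0.87, adjusted p = 0.0182). Sleeping mice ran from 8.96 to 10.21, and sleep-deprived mice differed from them by -0.01 (adjusted p = 0.991). Nr1d2 had neither CACGTG nor TTATGNAA (the E-box and the D-box, in 6.86% and 3.63% of all genes) in the 250 bases before its start, which says only that these letters are not in this window.

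Per1, a repressor that also responds to hormones and to waking, ran from 7.32 to 10.58 at baseline (median 8.06) and from 8.55 to 9.96 after sleep loss (median 9.11). Its difference of 0.82 did not pass (adjusted p = 0.0435, limma), nor did that without the 4 arrays (0.91, adjusted p = 0.0113), while without array 36 alone it did (1.09). Per2 differed by 0.51 (adjusted p = 0.304), Per3 by 0.14 (0.83), Arntl by -0.08 (0.941) and Clock by -0.02 (0.949). Array 36 set the highest or lowest baseline value of each of these genes. Cry1 ran from 6.90 to 8.22 at baseline, from 6.91 to 7.88 after sleep loss and from 6.58 to 7.28 after sleep, with a difference of -0.45 from baseline (adjusted p = 0.0792). Ciart, a repressor of the Clock activator, differed by 0.31 from baseline (adjusted p = 0.316) and by 0.76 from sleeping mice (adjusted p = 0.000486). Ciart was higher than in sleeping mice also without the 7 arrays that lay nearest to other groups, by 0.98 (adjusted p = 1.81e-06). It was the 1 member of the repressor list higher than in sleeping mice, and 1 other member was lower. Of all genes, 3.62% were higher and 3.74% lower in that contrast. Without the 7 arrays 1 member was higher and 0 lower, against 4.22% and 2.7% of all genes.

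**Figure D4:**
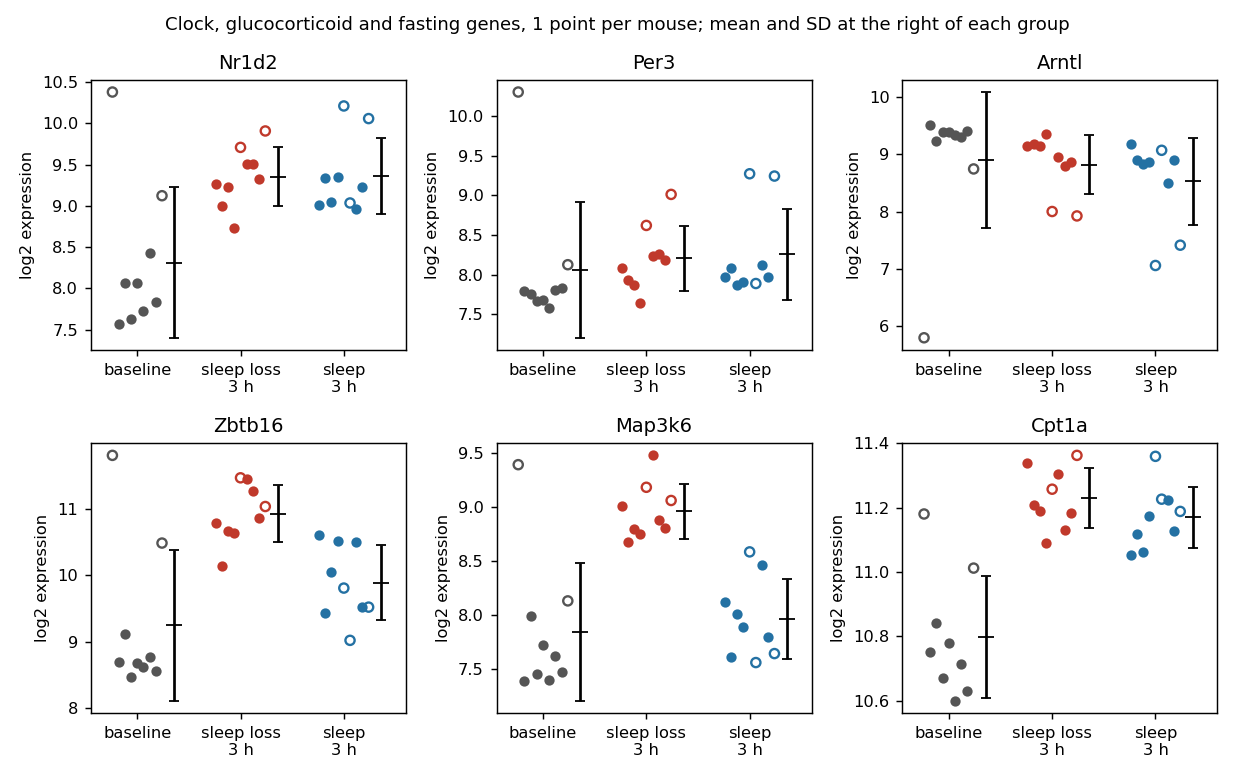
Log2 expression of the clock genes Nr1d2, Per3 and Arntl, the glucocorticoid-induced genes Zbtb16 and Map3k6, and the fatty acid gene Cpt1a in single mice (9 per group), with the mean and SD at the right of each group. Open circles are arrays whose profile lay nearest to another group. The open baseline circle far from the rest in Per3 (10.30) and Arntl (5.80) is array 36, and Nr1d2 and Cpt1a differ by -0.01 and 0.06 between sleep loss and sleep.

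Glucocorticoids, the adrenal stress hormones, act through a nuclear receptor that raises a shared set of genes in many tissues. Of 21 such genes 3 were higher, against 0.999% of all genes, and none was lower. The median was 0.31, the highest of the lists shown. Without arrays 36, 46, 56 and 70, 4 were higher, and leaving out array 36 alone gave 8. Zbtb16 (PLZF), a zinc finger repressor, had the largest difference of any called gene. It ran from 8.48 to 11.80 at baseline (median 8.70) and from 10.15 to 11.46 after sleep loss (median 10.87). Among baseline mice, arrays 36 (11.80) and 56 stood above the rest, and the highest value without array 36 was 10.48. The difference was 1.68 (SE 0.32, adjusted p = 0.000453, limma), a 3.2-fold rise, and 2.12 without the 4 arrays, and it did not pass when only the 18 arrays were fitted (adjusted p = 0.0193). Against sleeping mice it was 1.04 and did not pass (adjusted p = 0.0188).

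Map3k6, a stress-activated kinase, ran from 7.39 to 9.39 at baseline (median 7.62) and from 8.67 to 9.48 after sleep loss (median 8.88), and only array 36 of the baseline mice exceeded 8.13. It rose by 1.12 (SE 0.23, adjusted p = 0.00157, limma), and by 0.99 against sleeping mice (adjusted p = 0.00188). Its call was lost within arrays 36 to 66 (1.04, adjusted p = 0.0115) and for arrays 67 to 70 (1.21, adjusted p = 0.0136). Angptl4, which inhibits lipoprotein lipase and responds both to glucocorticoids and to fatty acid receptors, ran from 7.66 to 9.49 at baseline (median 8.23) and from 9.35 to 9.97 after sleep loss (median 9.52). It rose by 1.17 (SE 0.21, adjusted p = 0.000253, limma), while against sleeping mice the difference of 0.65 did not pass (adjusted p = 0.0317). Fkbp5 differed by 0.85 (adjusted p = 0.0886) and Tsc22d3 (GILZ) by 0.55 (0.0639), neither past the threshold. Of the 3 called genes Map3k6 had a promoter entry, and it held ACANNNTGT, a palindrome like that bound by the receptor. So did 6.76% of all genes and 4 of the 18 genes of this list with a promoter.

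Fatty acid genes raised by fasting had 3 of 21 members higher (Angptl4 among them), against 0.999% of all genes. None was lower, and the median was 0.09. Cpt1a, which admits fatty acids to mitochondria, ran from 10.60 to 11.18 at baseline (median 10.75) and from 11.09 to 11.36 after sleep loss (median 11.21), with array 36 the highest at baseline. It rose by 0.43 (SE 0.05, adjusted p = 8.04e-08, limma). Sleeping mice reached 11.05 to 11.36, and the difference between both states was 0.06 (adjusted p = 0.512). Acot1, a thioesterase of fatty acyl-CoA, did not overlap between groups, with 7.0 to 7.62 at baseline and 7.65 to 8.41 after sleep loss. It rose by 0.64 (SE 0.13, adjusted p = 0.000829, limma) and also exceeded sleeping mice, by 0.50 (adjusted p = 0.00378), but did not pass against baseline for arrays 67 to 70 (0.53, adjusted p = 0.0637). Pdk4, which spares glucose by stopping its entry to mitochondria, differed by 1.07 without passing (adjusted p = 0.0399).

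Enzymes of cholesterol synthesis leaned the other way. Of 18 genes, 2 were lower, against 0.877% of all genes, and none was higher. The median was -0.26, and 17 of the 18 differences were negative. Lss, the lanosterol synthase, fell by 0.38 (adjusted p = 0.00525, limma) and Mvk, the mevalonate kinase, fell by 0.40 (adjusted p = 0.00563). Without arrays 36, 46, 56 and 70, 4 were lower. Against sleeping mice 4 were lower (against 3.74% of all genes), and 0 without the 7 arrays nearest to other groups. The count depended on single mice, since it was 0 to 3 with 1 mouse left out, and Lss or Mvk lost the call without any of arrays 39, 40, 41, 43, 44, 45, 52, 53, 54, 55, 67 and 69. The largest adjusted p with 1 mouse left out was 0.0176 for Lss and 0.0187 for Mvk.

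Cirbp and Rbm3, RNA-binding proteins that rise when cells cool and whose levels follow body temperature over the day, were both lower. Cirbp ran from 9.02 to 10.09 at baseline (median 9.93) and from 8.73 to 9.45 after sleep loss (median 8.90), and fell by 0.78 (SE 0.16, adjusted p = 0.00134, limma). Rbm3 ran from 11.39 to 12.21 at baseline (median 11.72) and from 10.96 to 11.39 after sleep loss (median 11.21), and fell by 0.52 (SE 0.10, adjusted p = 0.000797). In sleeping mice Cirbp ran from 9.67 to 10.62 and Rbm3 from 11.48 to 12.06, and in each gene every sleeping mouse lay above every sleep-deprived mouse. The differences between both states were -1.09 and -0.68 (adjusted p = 1.08e-06 and 2.3e-06). Neither call held in every subset of arrays. Rbm3 did not pass without arrays 36, 46, 56 and 70 (-0.41, adjusted p = 0.0208) or for arrays 67 to 70 (-0.48, adjusted p = 0.0325). Cirbp passed in both but not within arrays 36 to 66 (-0.65, adjusted p = 0.0246), where without arrays 36, 46 and 56 neither gene passed (adjusted p = 0.0437 for Cirbp and 0.0136 for Rbm3). Srsf5, the other member of this list, differed by -0.06. Body temperature was not measured here.

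Immediate early genes, transcription factors that respond to stimuli within minutes, moved little as a set, with 2 of 24 higher, none lower and a median of 0.07. Nr4a3 (NOR-1), an orphan nuclear receptor, ran from 5.76 to 7.01 at baseline (median 6.06) and from 6.72 to 7.57 after sleep loss (median 7.17), a rise of 0.98 (SE 0.18, adjusted p = 0.000375, limma) that stood at the same size against sleeping mice. Maff rose by 0.52 (adjusted p = 0.00788) but lost its call without any of 14 of the 18 mice (arrays 38, 39, 40, 41, 45, 46, 52, 53, 54, 55, 67, 68, 69 and 70). Fos, Egr1 and Nr4a1 differed by -0.25, -0.31 and -0.42, none past the threshold.

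Collagen and elastic fibre genes had 2 of 22 members higher, and both modify collagen as it folds. P4ha1, the catalytic subunit of prolyl hydroxylase, ran from 10.29 to 10.83 at baseline (median 10.64) and from 10.66 to 11.49 after sleep loss (median 11.13), and rose by 0.54 (SE 0.08, adjusted p = 1.29e-05, limma). Plod1, a lysyl hydroxylase, rose by 0.39 (SE 0.07, adjusted p = 0.000236), by 0.48 within arrays 36 to 66 and by 0.27 for arrays 67 to 70 (adjusted p = 0.092). P4ha2, of the hypoxia list, rose by 0.50 (SE 0.09). In that list of 20 genes 2 were higher (P4ha2 and again P4ha1, which is in both lists) and 2 lower, with a median of -0.02. The lower ones were the pyruvate dehydrogenase kinase Pdk1 (-0.37) and the aldolase Aldoc (-0.34), and neither passed without arrays 36, 46, 56 and 70 (adjusted p = 0.0159 and 0.0245). Aldoc also lost its call without array 36 alone.

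Smaller sets had few changed members. Of 23 genes for glutathione, thioredoxin and other targets of the oxidant sensor Nrf2, Gclc, which makes the limiting subunit of glutathione synthesis, was higher in every sleep-deprived mouse (11.61 to 11.89) than in any baseline mouse (11.33 to 11.55), by 0.27 (SE 0.05, adjusted p = 0.000118, limma). Nqo1 and Txnrd3 were lower (-0.52 and -0.28), and both lost their calls without single mice, Nqo1 without any 1 of 9 (36, 39, 43, 44, 45, 52, 53, 55 and 70) and Txnrd3 without any 1 of 11 (36, 38, 43, 44, 45, 52, 53, 54, 67, 68 and 69), with largest adjusted p of 0.0221 and 0.023. Of 7 hexosamine and glycosylation enzymes, Gfpt2, which feeds glucose into amino sugars, was higher without overlap (9.00 to 9.49 against 8.49 to 8.92), by 0.49 (SE 0.10, adjusted p = 0.00128). Of 23 inflammatory targets of NF-kB, 3 were higher at differences of 0.21 to 0.40 (Il6, Sele and Ccl7), with Il6 near the bottom of the measured range at 3.12 to 3.61. Of these, Sele kept its call without arrays 36, 46, 56 and 70, and each lost it without some single mice (2, 10 and 13 of the 18, arrays 38 and 45 for all 3), with largest adjusted p of 0.0155, 0.0236 and 0.0252. No member passed among 18 interferon-induced genes, 25 respiratory chain subunits or 20 cell cycle genes, with medians of 0.00, -0.05 and 0.01.

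Outside the lists, rises included those of Npr3, the clearance receptor of natriuretic peptides, and of Muc5b, a secreted airway mucin. Npr3 ran from 10.51 to 11.30 at baseline (median 10.75) and from 11.67 to 12.13 after sleep loss (median 12.00), with no overlap. It rose by 1.14 (SE 0.17, adjusted p = 6.54e-06, limma), a 2.2-fold difference, and exceeded sleeping mice by 0.99 (adjusted p = 2.11e-05). Muc5b ran from 8.77 to 9.64 at baseline (median 9.13) and from 9.43 to 10.27 after sleep loss (median 9.92), and rose by 0.74 (SE 0.13, adjusted p = 0.000118). Its difference from sleeping mice was 0.41 and did not pass (adjusted p = 0.0228), nor did that without the 7 arrays (0.29, adjusted p = 0.168). The smallest adjusted p of all genes was that of 4930486L24Rik (2.37e-08), a gene known only by its clone name, at 5.41 to 6.24 at baseline and 6.23 to 7.16 after sleep loss.

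White blood cell genes were among the lower genes. In these whole lungs, fewer cells of a type and less RNA per cell cannot be told apart. Of 11 B cell genes 3 were lower, against 0.877% of all genes, and none was higher. All 11 differences were negative and the median was -0.73. The mean level of the list was 7.81 to 8.49 at baseline (median 8.35) and 6.78 to 7.79 after sleep loss (median 7.49), so no mouse of one group reached the other. The lowest value was that of array 67. The 3 called genes were Bank1 (-0.93), the B cell master regulator Pax5 (-0.75) and Cd79b (-0.72), part of the antigen receptor, with adjusted p of 0.00668, 0.00668 and 0.0089 (limma). All 3 lost their calls in turn without single mice (11, 9 and 14 of the 18, among them array 67), with largest adjusted p of 0.0253, 0.0209 and 0.0291. The count ran from 0 to 4 with 1 mouse left out, and moved by more than 1.5 times without any 1 of arrays 38, 39, 41, 43, 45, 52, 53, 54, 55, 56 and 67. Only Pax5 passed without arrays 36, 46, 56 and 70, and none passed within arrays 36 to 66 or for arrays 67 to 70 alone, while fitting only the 18 arrays gave 6. Against sleeping mice 9 of the 11 were lower, with a median of -0.95, and 8 were lower without the 7 arrays nearest to other groups. Of all genes, 3.74% were lower in that contrast, and 2.7% without the 7 arrays. Against baseline no member passed among 11 T cell genes or 10 natural killer cell genes, with medians of -0.26 and -0.17. Against sleeping mice 1 T cell gene and 1 natural killer cell gene were lower, and 1 and 0 without the 7 arrays.

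Some neutrophil and monocyte genes were lower as well. Of 13 neutrophil genes 2 were lower, against 0.877% of all genes, and none was higher. The median was -0.49, and 3 differences were positive. The count was 0 within arrays 36 to 66, and 1 to 4 with 1 mouse left out, moving by more than 1.5 times without any 1 of arrays 36, 38, 39, 41, 43, 44, 45, 52, 53, 54, 56, 67, 68, 69 and 70. Retnlg, a secreted product of neutrophils, ran from 8.36 to 9.81 at baseline (median 9.43) and from 7.46 to 8.99 after sleep loss (median 8.12), with array 36 the lowest at baseline. It fell by 1.15 (SE 0.23, adjusted p = 0.001, limma), but did not pass within arrays 36 to 66 (adjusted p = 0.0142). S100a8, a subunit of calprotectin, fell by 0.78 (adjusted p = 0.00969) but lost its call without any 1 of 14 arrays (38, 39, 41, 43, 44, 45, 52, 53, 54, 56, 67, 68, 69 and 70), with a largest adjusted p of 0.0302. Without arrays 36, 46, 56 and 70, 5 members were lower. Of 10 monocyte genes 2 were lower, against 0.877% of all genes, and none was higher, with a median of -0.41. Ifitm6, a membrane protein of myeloid cells, ran from 6.73 to 7.97 at baseline (median 7.70) and from 5.63 to 6.99 after sleep loss (median 6.55), and fell by 1.07 (SE 0.20, adjusted p = 0.000382). F13a1, a coagulation factor subunit, fell by 0.39 (SE 0.08, adjusted p = 0.00106). Against sleeping mice 5 neutrophil and 6 monocyte genes were lower and none higher, where 3.74% of all genes were lower. Without the 7 arrays nearest to other groups 4 neutrophil and 4 monocyte genes were lower, against 2.7% of all genes. None of 10 alveolar macrophage genes passed, with a median of 0.02.

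**Figure D5:**
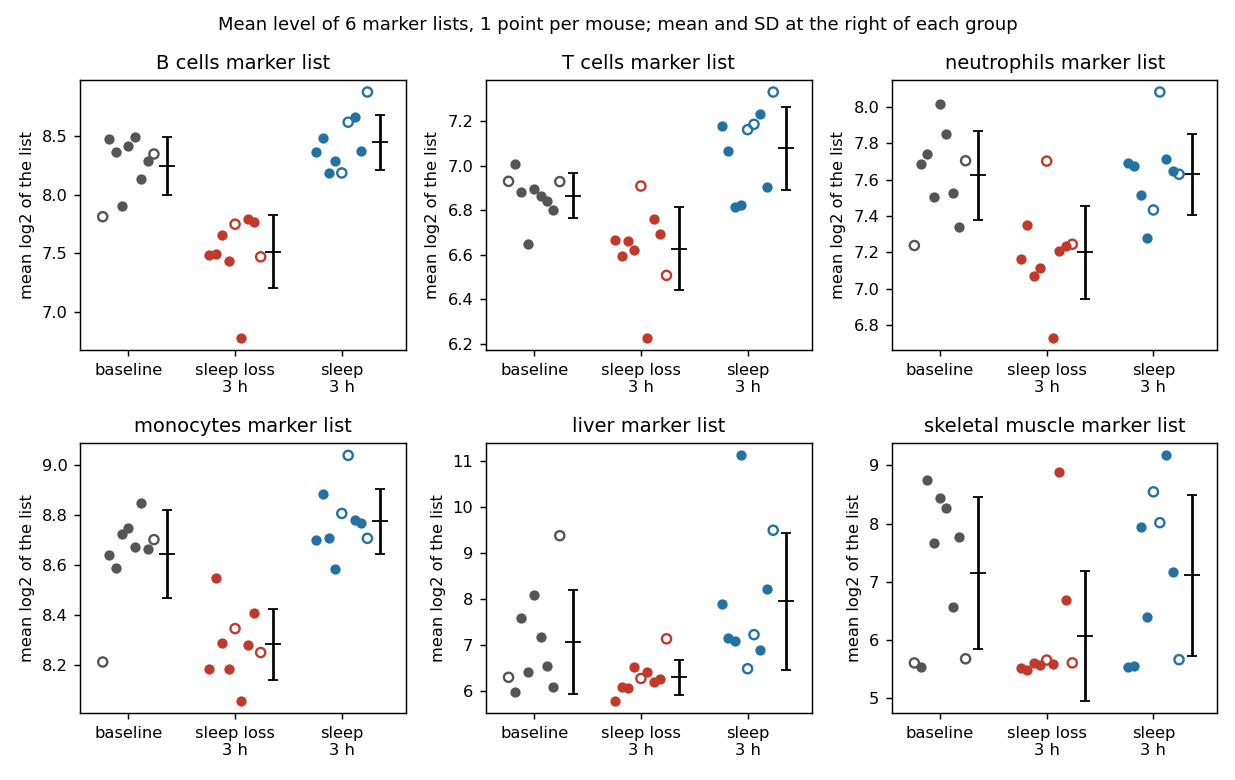
Mean log2 level of 6 marker lists in single mice at baseline, after 3 h of sleep loss and after 3 h of sleep opportunity (9 each), with the mean and SD of each group at its right. Open circles are arrays whose profile lay nearest to another group. The B cell list does not overlap between baseline and sleep loss, while liver and skeletal muscle lists spread over 3 or more log2 units within the baseline group.

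Large falls outside these lists included further genes of blood cells. Serpinb10, a protease inhibitor of bone marrow cells, ran from 7.29 to 8.01 at baseline (median 7.73) and from 5.62 to 7.32 after sleep loss (median 6.52), and fell by 1.24 (SE 0.27, adjusted p = 0.00366, limma), a call lost without array 45 or array 67 (largest adjusted p = 0.0134). Clec12a, an inhibitory lectin of myeloid cells, did not overlap (7.82 to 8.37 against 7.05 to 7.51) and fell by 0.74 (SE 0.12, adjusted p = 3.38e-05). Cd180, a receptor of B cells and macrophages, fell by 0.75, a call lost without array 67 (adjusted p = 0.0115). Sphkap, an anchor protein of protein kinase A, fell by 0.86 (SE 0.11, adjusted p = 1.68e-07) with no overlap (5.26 to 6.31 against 4.56 to 5.24), and Lrrc17 fell by 0.72 (SE 0.11). Gm9733 fell by 0.91 (adjusted p = 0.000162), and Clec2i, a natural killer receptor ligand, fell by 0.83 (adjusted p = 0.00386), a call lost without array 38, 53 or 67.

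Structural cells of the lung showed few calls. None of 12 alveolar type 2, 9 alveolar type 1, 11 club and ciliated, or 10 smooth muscle genes passed, and their medians lay between -0.03 and 0.02. Of 12 endothelial genes only Pecam1 was higher (0.13, adjusted p = 0.00627, limma), and of 8 mesothelial genes only Krt8 (0.21, adjusted p = 0.00488). Neither passed without arrays 36, 46, 56 and 70 (adjusted p = 0.0205 and 0.023), and each lost its call without single mice, Pecam1 without any 1 of arrays 39, 41, 43, 44, 45, 52, 53 and 67 and Krt8 without any 1 of arrays 36, 41, 54, 55 and 69 (largest adjusted p = 0.0219 and 0.015). Liver and skeletal muscle genes had medians of -0.81 and -0.86 with 0 of 11 and 0 of 10 past the threshold, and these medians had the same sign as those of the white blood cell lists. The part of liver or muscle RNA in the results was not tested. With the liver level of each mouse as a covariate 154 genes were higher and 159 lower, with 12, 4 and 12 higher members in the chaperone, CCT and ER folding lists. In the same fit the lower members numbered 0 in the B cell list (median -0.71), 1 in the neutrophil list, 2 in the monocyte list and 2 in the cholesterol list.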

How the data were processed

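RNA of 1 lung was measured on each of 78 Affymetrix Mouse Gene 1.0 ST arrays. The authors made expression values by RMA (robust multi-array averaging, log2 scale; version not given in the sources used here), which corrects background, quantile-normalizes and summarizes probes, so small differences of dim probe sets are compressed. The deposited matrix holds these values as a score with the decimal point missing, and the point was restored as 2 digits before it where the first digit is 1, and otherwise 1 digit, giving 2.27 to 13.85. Groups were taken from the labels.

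Genes were named through the platform annotation (21218 probe sets had 1 symbol, 1881 several, which named no gene, and 12457 none), and each of 18820 genes was taken by its probe set with the highest mean; 1386 genes had over 1. Group means of all 78 arrays (9 groups) were fitted with limma 3.58.1 in R 4.3.3 (package data.table, version 1.17.8), with p-values adjusted by Benjamini-Hochberg over 35556 probe sets and called under 0.01. The fit was tested on simulated data. Python 3.11.15 with numpy 2.4.6, pandas 2.3.3 and matplotlib 3.10.9 was used for lists, motifs and figures. Of 659 entries in 41 gene lists, 591 were matched. Members and lists were chosen with earlier results of these data known. Named genes were the 12 largest differences in each direction among genes called also without arrays 46, 56 and 70, up to 4 called members per list by adjusted p (the member of smallest p where none was called), and all clock and cold-inducible genes; other genes were chosen after their values were seen. Alternatives were other thresholds, array subsets, blocks of array numbers, filters, variance models, scalings, a liver covariate and single arrays left out.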

Additional observations from a re-analysis of the deposited data

Results flagged for a closer look

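In 26 of 160 groups of 9 mice, 1 array lay far from the other 8, by a gap of over 0.493 of the whole range (Dixon's test). Chance flags about 1 in 20 single checks, but the genes share the same mice, so the checks are not independent. Of the 26, 19 were on baseline array 36. Its clock activators were low, with Arntl at 5.80 (others 8.75 to 9.51), Npas2 at 6.54 (9.33 to 10.08) and Clock at 9.86 (10.47 to 10.66), while Rora was high at 10.03 (9.58 to 9.73). Its clock repressors were high, with Per2 at 10.12 (others 6.84 to 7.51), Per3 at 10.30 (7.58 to 8.12), Cry2 at 10.01 (8.95 to 9.21), Ciart at 9.92 (7.77 to 8.74) and Bhlhe41 at 8.79 (6.97 to 7.71). So were the output genes Usp2 at 9.15 (7.37 to 7.86), Hlf at 9.37 (7.47 to 7.76), Tef at 10.11 (8.21 to 8.83), Wee1 at 9.88 (7.98 to 8.27) and Tspan4 at 11.04 (9.28 to 9.53). Array 36 was also apart in Map3k6 (9.39 against 7.39 to 8.13), Rbm3 (12.21 against 11.39 to 11.80), Aldoc (8.79 against 8.04 to 8.35), Retnlg (8.36 against 9.20 to 9.81) and Ifitm6 (6.73 against 7.35 to 7.97).

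Baseline array 56 was low in Cry1, at 6.90 against 7.82 to 8.22. Among sleep-deprived mice, array 67 was low in Bank1 (6.55 against 7.57 to 7.91), Clec2i (5.18 against 5.85 to 6.25) and Ifitm6 (5.63 against 6.37 to 6.99). Array 46 was high in Gm9733 (5.35 against 4.60 to 4.94) and low in Cct5 (9.95 against 10.11 to 10.26). Array 68 was low in Pecam1, at 11.81 against 11.85 to 11.89.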

How the results depend on the processing

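The counts of 188 higher and 165 lower genes depended on the setting. At an adjusted p under 0.05 they were 482 and 480, and with array weights 558 and 703. Fitting only the 18 arrays gave 97 higher genes, and 4 runs of array numbers as a block gave 288. Within arrays 36 to 66 the counts were 323 and 97 (408 higher without arrays 36, 46 and 56, chosen after seeing the data), within arrays 36 to 51 they were 101 and 19, and for arrays 67 to 70 against baseline 75 and 94. Median centring gave 98 lower genes. With 1 mouse left out they ran from 118 to 226 and from 85 to 235. The other counts stayed within 1.5 times. No value of the 99 named genes changed direction past the threshold. Of the 56 called, 12 kept the call under all of the 14 alternatives other than single mice in which they were tested. Genes removed by the filter for a mean log2 of at least 6 were not tested in that alternative. With any 1 of 18 mice left out, 36 kept the call. Of the same 56 called genes, 17 lost the call when only the 18 arrays were fitted and 22 within arrays 36 to 66. It was lost by 39 within arrays 36 to 51 and by 28 for arrays 67 to 70. Without arrays 36, 46, 56 and 70, 11 lost it. The causes were not tested. No paired analysis was possible because the labels give no replicate number shared between groups. With 9 mice a group, small differences of dim probe sets may go undetected.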

Other observations

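Some called genes outside the lists share a role in the extracellular matrix, and were chosen after their values were seen. Has1, a hyaluronan synthase, ran from 5.44 to 5.69 at baseline and from 5.96 to 6.39 after sleep loss, with no overlap, and rose by 0.57 (SE 0.08, adjusted p = 6.5e-06, limma). Tnfaip6, which modifies hyaluronan, rose by 0.56 (adjusted p = 0.0011, limma), the protease Adamts9 by 0.48 (adjusted p = 0.00153), the prolyl hydroxylase P4ha3 by 0.48 (adjusted p = 0.00177) and the plasminogen activator Plat by 0.49 (adjusted p = 0.000122). All 5 kept their calls with any 1 mouse left out and without arrays 36, 46, 56 and 70.

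Further genes of white blood cells were lower, and were likewise chosen after their values were seen. The leukocyte tetraspanin Cd37 differed by -0.70 (adjusted p = 0.00439, limma), the B cell adaptor Blnk by -0.53 (adjusted p = 0.00458), the actin regulator Coro1a by -0.55 (adjusted p = 0.00602), the phosphatase Ptpn6 by -0.40 (adjusted p = 0.0015), and the neutrophil oxidase subunit Ncf1 and the leukotriene enzyme Alox5 each by -0.29 (adjusted p = 0.0071 and 0.000499). Cd37, Blnk, Coro1a and Ncf1 lost their calls without some single mice (3, 4, 9 and 10 of the 18, array 67 among them for each), with a largest adjusted p of 0.0272.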
